A study of Arabidopsis thaliana with 9 samples.

Results

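In detached Arabidopsis leaves kept 48 h in the dark, 133 loci differed at least 2-fold between compound 6 and compound 3 leaves. In RefSeq all 133 have only their locus number as a symbol, though some have a name among their synonyms. They were chosen by a rule that uses measured values. A transcript cluster is a set of probes summarised as a single value on each array, and a gene can have more than 1. One was taken when it was paired with 1 gene whose RefSeq symbol is only its AT locus, when the group means of the log2 values for compound 6 and compound 3 lay at least 1 apart, and when all 3 arrays of one compound lay above all 3 of the other. AT4G15660, AT4G15670, AT4G15680, AT4G15700, AT2G30540 and AT4G33040 were left out by that rule. Of these 6 loci, 5 met the same thresholds. All 6 are absent from the counts of clusters with only a locus for a symbol. The 133 clusters stand for 133 loci, among 14890 clusters with only a locus for a symbol and 16722 clusters paired with 1 gene. The gap between the compounds is therefore a description throughout and carries no test. Where each locus stood in control leaves was not part of the rule, and it shows which compound's leaves lay away from control.

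Leaves were from the Col-0 ecotype at 21 days. Each sample pooled 10 to 15 detached leaves in MS medium. The medium held compound 6 at 10 µM, compound 3 at 10 µM, or 0.05% DMSO alone for control leaves. Each of the 3 groups held 3 biological replicates on 1 Affymetrix array each, and the deposited values are log2 RMA values. The labels call both compounds cytokinins and identify them by code alone. Control leaves were sampled at 48 h as well, so higher and lower mean relative to control leaves after the same time in the dark. The labels do not say in what order or batches the samples were handled. Any difference in handling between the groups could not be told apart from treatment.

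Cytokinins are plant hormones that slow the senescence of leaves. They are sensed by membrane histidine kinases, which pass phosphate through shuttle proteins to response regulators in the nucleus, and the type-B regulators then switch on target genes. A leaf cut off and kept dark loses chlorophyll and photosynthetic transcripts and breaks down its protein and lipid, and cytokinin delays this. For most loci measured here the RefSeq symbol is only a number for the chromosome and place in the gene order. The tables used here give no product description for such loci, so no role is attached to them below, apart from 3 whose RefSeq synonyms hold a family name.

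Array medians over clusters of 1 gene lay between 3.7 and 3.81, and single values between 0.132 and 13.9. Over all 38408 clusters the medians were 3.87 to 4.15 on treated arrays, against 3.71 to 3.83 on control arrays. Of 6 leaf mesophyll markers 3 were measured. RCA averaged 11.04 with compound 6, 10.83 with compound 3 and 9.9 in control leaves, and LHCB4.2 averaged 9.48, 9.33 and 8.63 in that order. SBPASE averaged 8.68 with compound 6, 8.31 with compound 3 and 5.55 in control leaves. Of 5 guard cell markers only FMA was measured, at 5.98, 5.33 and 5.71 in the same order, and its part in any result was not tested. None of the phloem, epidermis and root markers looked up was measured. In whole leaves, fewer cells of a type and less RNA per cell cannot be told apart.

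Compound 6 leaves had the higher level at 76 of the 133 loci and the lower level at 57. Over all 16722 clusters of 1 gene, 0.562% met the same thresholds with compound 6 higher and 0.419% with compound 6 lower. In either direction 0.981% of them did so, and 0.893% of clusters with only a locus for a symbol. This measure chose the members, so nothing is read from these shares. The gap ran from 2.65 at AT1G48720 to -2.15 at AT5G05965 (compound 6 minus compound 3, log2). It was under 1.2 at 74 loci and at least 1.5 at 16. Just inside the threshold lay AT1G69160, AT5G38980 and AT4G31650, with gaps of 1.0087, 1.0109 and 1.0281, and just outside AT3G22104, AT3G61750 and AT3G54250, with 0.9998, 0.9974 and 0.9895. On the other side AT5G39580, AT2G31945 and AT1G09260 were inside at -1.0044, -1.0058 and -1.0128, while AT2G42100, AT4G20320 and AT3G60420 were outside at -0.9967, -0.9964 and -0.9949. A further 10 loci had means at least 1 apart and arrays that overlapped.

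The split of the 133 loci into higher and lower depends on the scaling of the arrays. With each array centred on its median over all clusters, 151 loci met the thresholds, 61 with compound 6 higher and 90 with compound 6 lower, and 118 of the 133 were among them. Quantile normalization applied again gave 142, of which 68 were higher and 74 lower with compound 6. Without 1 of the 6 compound arrays, 101 to 117 of the 133 still met the thresholds, and 62 did so whichever array was left out. Of 1774 clusters whose gene has a symbol, 25 met the same thresholds (1.41%), and compound 6 was the higher at 16 of these.

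**Figure D1:**
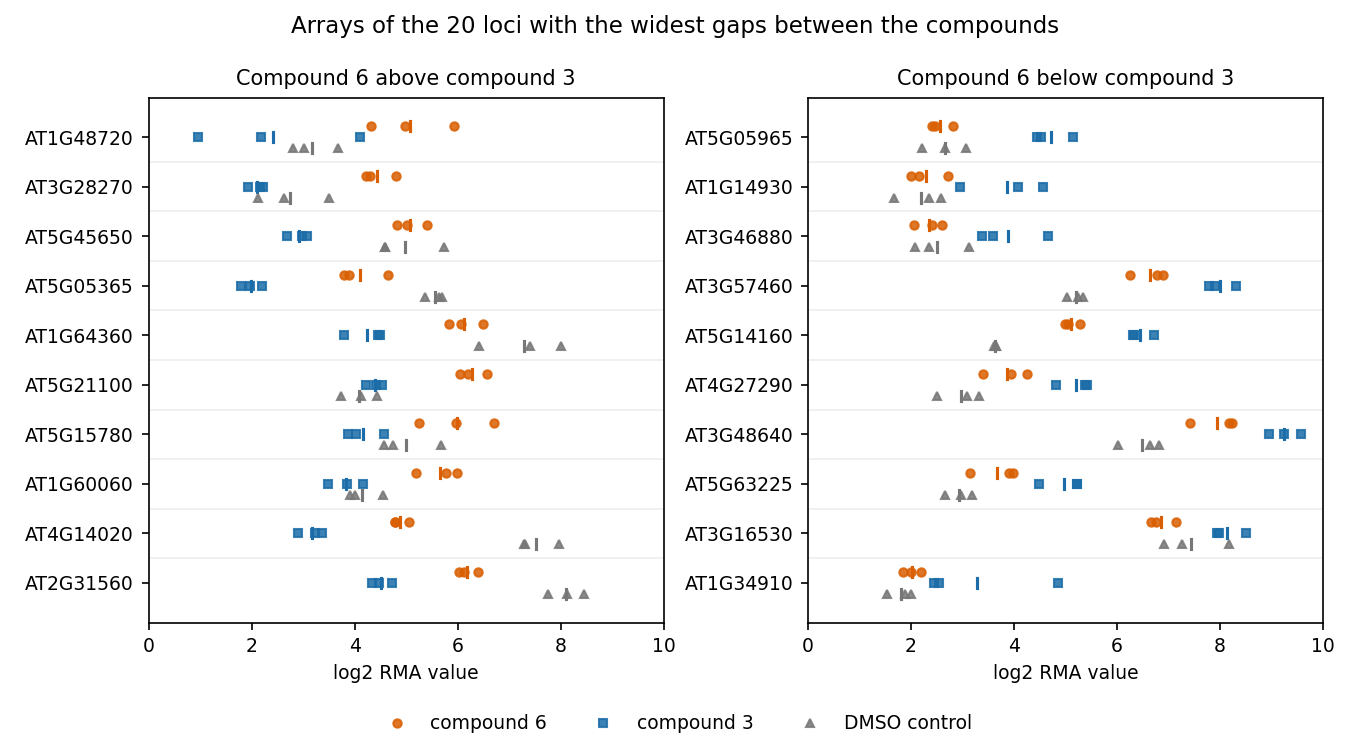
Log2 RMA values of the 3 arrays of each group, with short bars at group means, for the 10 loci with the highest compound 6 minus compound 3 gap (left) and the 10 with the lowest (right). Control arrays (triangles) lie near the compound 6 arrays at AT5G45650 and AT5G05965 and near the compound 3 arrays at AT5G21100 and AT1G60060.

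Compound 6 leaves lay farther from control at 34 of the 133 loci, and compound 3 leaves at 99 (74.4%). Over all clusters of 1 gene compound 3 was the farther at 52.7%. Those clusters were not chosen for a wide gap, and the compound means behind both shares also entered the rule. The 52.7% is therefore not a like-for-like background, and no excess is read from the 74.4%. Among the 76 loci higher with compound 6 the group medians were 5.41 with compound 6, 4.08 with compound 3 and 5.61 in control leaves. Among the 57 lower with compound 6 they were 4.69, 5.81 and 4.72 in the same order. These medians run over loci that lay above control and loci that lay below it, and the compound levels entered the rule. Compound 3 was the farther at 55 of the 76 and at 44 of the 57.

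Each compound was then set against control in 1 linear model over all clusters of 1 gene, and a locus was called at a Benjamini-Hochberg adjusted p under 0.05 (limma, two-sided). All 133 loci were tested, with no filter on low values. The compound arrays in these comparisons also entered the rule, so the calls sort the loci and do not support the gap itself, and the 2 comparisons share their control arrays. With compound 6, 20 of the 133 rose and 29 fell, where 5.62% of all clusters rose and 4.72% fell (10.3% in either direction). With compound 3, 37 rose and 46 fell, where 5.6% of all clusters rose and 6.11% fell (11.7% in either direction). None of the 133 was called up with one compound and down with the other, and 1 of all 16722 clusters was (0.00598%). The control mean lay between the compound means at 28 of the 76 loci higher with compound 6 and at 26 of the 57 lower. Opposite changes short of a call therefore remain possible. At AT1G68570 and AT3G22970 the compound 6 arrays all lay above the control arrays and the compound 3 arrays all below them. At AT2G20150 the order was the reverse. The median change of the 133 was -0.07 with compound 6 and -0.35 with compound 3, against -0.02 and 0.01 over all clusters. All 3 compound 6 arrays lay above all 3 control arrays at 28 loci and below them at 32, where 11.9% and 12.7% of all clusters did so. The 3 compound 3 arrays lay above at 42 and below at 53, where 12.9% and 13.4% of all clusters did so.

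**Figure D2:**
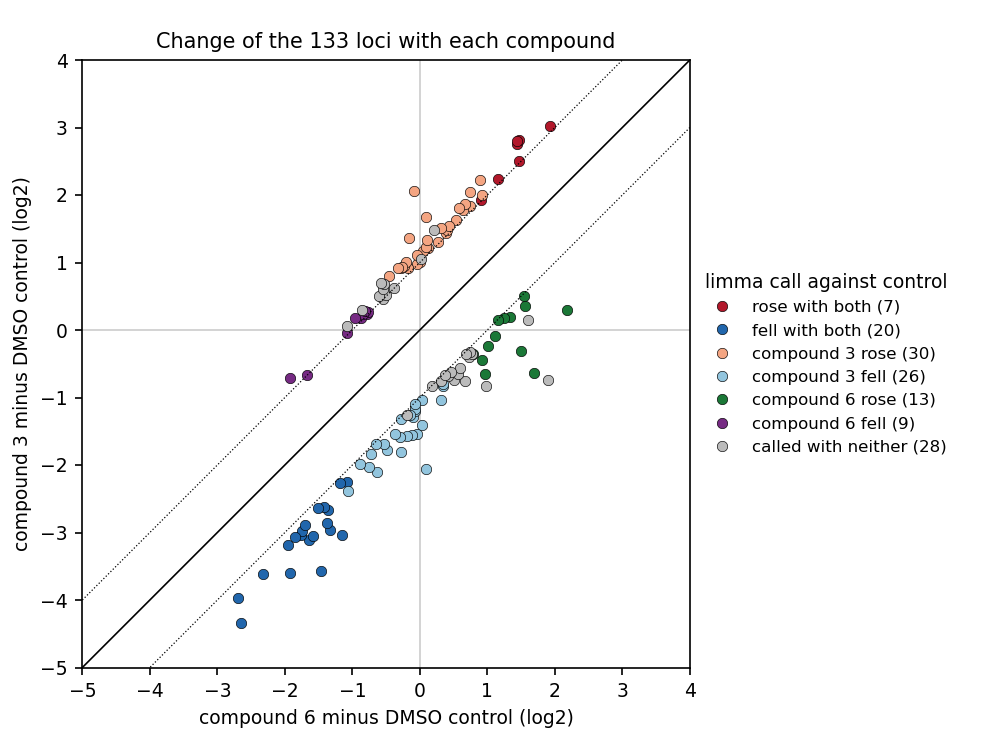
Log2 difference from control of the 133 loci with compound 6 (horizontal axis) and with compound 3 (vertical axis), coloured by limma call. Dotted lines mark the gap of 1 that the rule asks for, which keeps every point off the diagonal, and the 20 loci that fell with both compounds all lie below it.

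The mean of both compounds was also compared with control. Given equal spread in the groups, the error of this contrast is uncorrelated with that of the gap. The rule did not ask for this contrast, but the same compound arrays enter both. By this measure 27 of the 133 rose and 38 fell, where 6.82% of all clusters rose and 6.69% fell (13.5% in either direction). Of the 76 loci higher with compound 6, 36 fell and 6 rose. Of the 57 lower with compound 6, 21 rose and 2 fell. The median change over both compounds was -0.7 for the 76 and 0.54 for the 57, against 0 over all clusters. Where this measure was called, the change from control had the sign of compound 3 minus compound 6 at 57 loci (87.7%) and the opposite sign at 8. Over all 2259 clusters called by it, that share was 53.8%, made up of 42.1% of those that rose and 65.7% of those that fell. Among the members it held at 21 of the 27 that rose and 36 of the 38 that fell. The 2259 clusters were not chosen for a wide gap, and the sign of a narrow gap is less certain. Their share is therefore not a like-for-like background for the members. The other 68 of the 133 loci were not called by this measure. With arrays centred on their median over all clusters, 19 of the 133 rose and 46 fell by this measure.

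**Figure D3:**
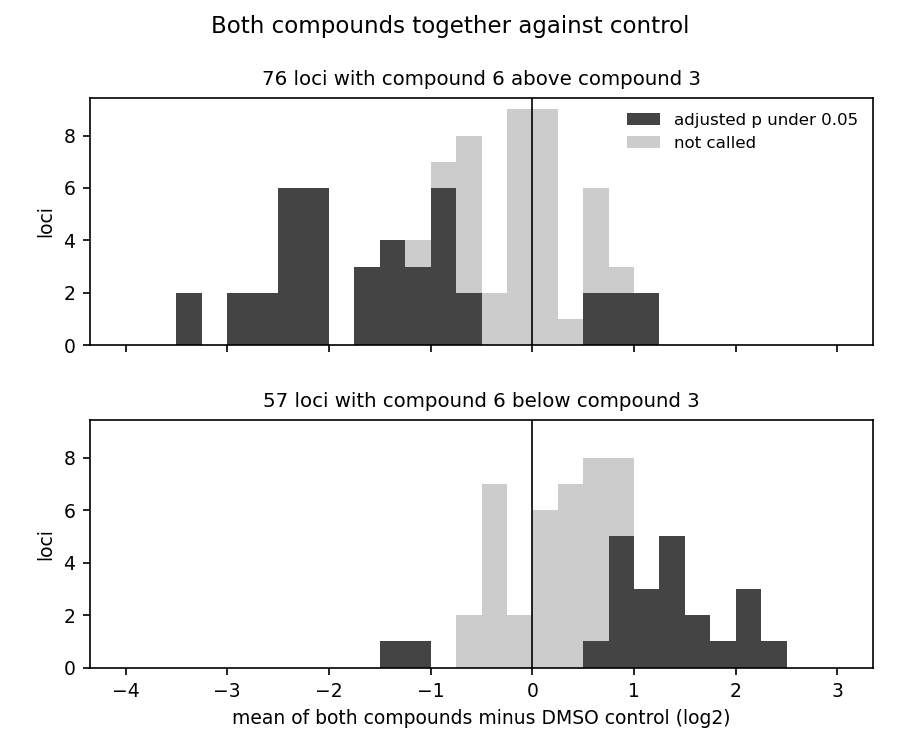
Number of loci by the log2 difference of the mean of both compounds from control, for the 76 loci with compound 6 above compound 3 (top) and the 57 with compound 6 below (bottom). Dark bars are loci with an adjusted p under 0.05, 36 of them below 0 in the top panel and 21 above 0 in the bottom panel.

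The calls place the 133 loci in 7 patterns. The most frequent, at 30 loci, was a rise with compound 3 and no call with compound 6, and 28 loci were called with neither. A fall with compound 3 and no call with compound 6 held 26 loci, and a fall with both held 20. A rise with compound 6 and no call with compound 3 was found at 13 loci, a fall with compound 6 and no call with compound 3 at 9, and a rise with both at 7. At a locus called with only one compound the other compound's change is not shown to be 0, and its value is given beside it.

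Of the 30 loci that rose with compound 3 and were not called with compound 6, a pattern of 2.03% of all clusters, the widest gap was at AT5G05965. It stood at 2.48, 2.82 and 2.40 on compound 6 arrays and 4.53, 5.15 and 4.45 on compound 3 arrays, against 2.66, 3.08 and 2.22 on control arrays. The compound 3 arrays lay above all the others, and those of compound 6 and control overlapped. Compound 3 raised it by 2.06 (log2, SE 0.26, adjusted p = 0.000122), a 4.17-fold difference that is approximate at a dim control mean of 2.65, and with compound 6 it differed from control by -0.09 (adjusted p = 0.916). Its call with compound 3 held without any 1 of the 6 arrays compared, which are the 3 of the compound and the 3 of control, and calls said below to hold were refitted in the same way.

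AT1G14930 had 2.16, 2.73 and 2.01 with compound 6 and 2.96, 4.08 and 4.57 with compound 3, against 2.58, 2.36 and 1.67 in control leaves. AT4G27290 had 3.94, 4.25 and 3.41 with compound 6 and 4.81, 5.37 and 5.42 with compound 3, against 2.51, 3.33 and 3.09 in control leaves. At both loci the compound 3 arrays were the highest of the 9, and at AT4G27290 the compound 6 arrays also lay above control. The rise with compound 3 was 1.67 at AT1G14930 (SE 0.36, adjusted p = 0.00716) and 2.22 at AT4G27290 (SE 0.27, adjusted p = 0.00011). The compound 6 change was 0.09 at AT1G14930 (adjusted p = 0.934) and 0.89 at AT4G27290 (adjusted p = 0.0564). AT5G63225 rose with compound 3 by 2.04 (adjusted p = 0.000203), at 4.98 ± 0.42 against 2.94 ± 0.26 in control leaves (SD, n = 3), and its compound 6 change was 0.74 (adjusted p = 0.114). These 3 calls with compound 3 held without any 1 of the 6 arrays compared.

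A pair of loci in this pattern had weaker calls. AT3G46880 averaged 2.36 ± 0.27 with compound 6 and 3.88 ± 0.69 with compound 3, against 2.51 ± 0.55 in control leaves (SD, n = 3 each). One compound 3 array, at 4.66, lay above the other compound 3 arrays at 3.38 and 3.59. Its rise of 1.36 (adjusted p = 0.0152) was 0.97 with replicate 2 of compound 3 left out (adjusted p = 0.0663). With control replicate 1 left out it was 1.28 (adjusted p = 0.0568), and with control replicate 3 left out 1.14 (adjusted p = 0.0638), none of them a call. AT4G25580 averaged 6.30 ± 0.15 with compound 3 and 5.50 ± 0.31 in control leaves (SD, n = 3 each), with a log2 change of 0.80 (adjusted p = 0.0256). The change was 0.74 with replicate 2 of compound 3 left out (adjusted p = 0.0861), 0.77 with its replicate 3 left out (adjusted p = 0.0754) and 0.62 with control replicate 2 left out (adjusted p = 0.103), none of them a call. Over the 30 loci the compound 6 change ran from -0.45 to 0.91 (median 0.1) and the compound 3 change from 0.8 to 2.22 (median 1.34). Control levels ran from 2.1 to 8.57, and 20 of the 30 kept the compound 3 call without any 1 of the 6 arrays compared.

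The mirror pattern, a fall with compound 3 and no call with compound 6, held 26 loci and 2.49% of all clusters. AT5G45650 had 4.81, 5.41 and 5.01 with compound 6 and 2.69, 2.99 and 3.08 with compound 3, against 4.60, 4.60 and 5.74 in control leaves. Compound 3 arrays lay below all the others, and the compound 6 arrays fell within the control range. The change was -2.06 with compound 3 (SE 0.29, adjusted p = 0.000332), a 4.17-fold lower level that is approximate at a dim compound 3 mean of 2.92, and 0.10 with compound 6 (SE 0.29, adjusted p = 0.916).

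AT3G02910, among the brighter loci, had 8.82, 9.30 and 9.47 with compound 6 and 7.95, 7.53 and 7.76 with compound 3, against 9.23, 9.26 and 9.44 in control leaves. AT5G65470 had 7.20, 6.94 and 7.21 with compound 6 and 5.76, 5.71 and 5.55 with compound 3, against 7.41, 6.76 and 7.09 in control leaves. AT1G27030 had 6.41, 6.41 and 6.23 with compound 6 and 4.84, 4.98 and 4.74 with compound 3, against 5.95, 6.71 and 6.53 in control leaves. At these 3 loci the compound 3 arrays lay below every compound 6 and control array, while the compound 6 and control arrays overlapped. Compound 3 changed AT3G02910 by -1.56 (adjusted p = 0.000272), AT5G65470 by -1.41 (adjusted p = 0.000467) and AT1G27030 by -1.55 (adjusted p = 0.000331). The compound 6 changes were -0.11, 0.03 and -0.05 in the same order (adjusted p = 0.861, 0.964 and 0.946).

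AT1G24996 averaged 2.70 ± 0.46 with compound 3 and 4.50 ± 0.93 in control leaves (SD, n = 3 each), and changed by -1.80 (adjusted p = 0.00538). AT4G30450 averaged 3.1 ± 0.65 with compound 3 and 5.20 ± 0.50 in control leaves (SD, n = 3 each), and changed by -2.10 (adjusted p = 0.000591). Their compound 6 changes of -0.28 and -0.63 were not called (adjusted p = 0.774 and 0.291). The 6 loci named here kept the compound 3 call without any 1 of the 6 arrays compared, as did 19 of the 26. Over the 26 the change ran from -1.07 to 0.34 with compound 6 (median -0.17) and from -2.38 to -0.8 with compound 3 (median -1.55). Control levels ran from 3.57 to 9.76.

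The 20 loci that fell with both compounds held the greatest changes, and this pattern covered 3.62% of all clusters. All 20 fell farther with compound 3, by the choice of loci at least 1 log2 unit farther in group means. Over all 605 clusters that fell with both compounds, compound 3 was the farther at 404 (66.8%). AT4G14020 had 5.06, 4.78 and 4.79 with compound 6 and 2.90, 3.24 and 3.38 with compound 3, against 7.30, 7.98 and 7.28 in control leaves. The 3 groups did not overlap, with compound 3 lowest and control highest. It changed by -2.64 with compound 6 (SE 0.23, adjusted p = 1.01e-05), 6.25-fold lower, and by -4.35 with compound 3 (SE 0.23, adjusted p = 1.1e-07), 20.4-fold lower. The compound 3 mean of 3.17 is dim, so that this fold is approximate.

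AT5G05365 had 3.80, 4.64 and 3.89 with compound 6 and 1.79, 1.98 and 2.21 with compound 3, against 5.64, 5.37 and 5.70 in control leaves. AT2G31560 had 6.13, 6.03 and 6.39 with compound 6 and 4.48, 4.72 and 4.34 with compound 3, against 8.12, 7.75 and 8.45 in control leaves. AT5G14940 had 7.17, 7.60 and 6.96 with compound 6 and 5.80, 5.74 and 5.29 with compound 3, against 8.19, 8.45 and 9.09 in control leaves. Each of the 3 loci had the same order of groups with no overlap between any of them. AT5G05365 changed by -1.46 with compound 6 and -3.58 with compound 3 (adjusted p = 0.00123 and 5.25e-07), and with compound 3 its level of about 2 is dim, so that the fold is approximate. AT2G31560 changed by -1.93 and -3.60 in that order (adjusted p = 8.04e-05 and 3.08e-07), and AT5G14940 by -1.33 and -2.97 (adjusted p = 0.00406 and 4.93e-06). The calls of these 4 loci with both compounds held without any 1 of the 6 arrays compared.

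At a pair of the 20 the compound 6 call was weak. AT1G64360 averaged 6.13 ± 0.33 with compound 6 and 4.25 ± 0.40 with compound 3, against 7.28 ± 0.80 in control leaves (SD, n = 3 each). Its compound 6 change of -1.15 (adjusted p = 0.0475) ended without any 1 of the 3 compound 6 arrays or of control replicates 2 and 3, with values from -1.33 to -0.78 and adjusted p from 0.05 to 0.174. Its compound 3 change of -3.03 (adjusted p = 5.04e-05) held in all 6 such fits. AT1G79520 averaged 7.10 ± 0.51 with compound 6 and 5.62 ± 0.79 with compound 3, against 8.48 ± 0.67 in control leaves (SD, n = 3 each). Its compound 6 change of -1.38 (adjusted p = 0.0392) ended without the same arrays, with values from -1.55 to -1.02 and adjusted p from 0.0539 to 0.163, while the compound 3 change of -2.86 (adjusted p = 0.000279) held. Over the 20 loci the change ran from -2.69 to -1.08 with compound 6 (median -1.62) and from -4.35 to -2.25 with compound 3 (median -3.03). Control levels ran from 5.57 to 10.52. Without any 1 of the 6 arrays compared 16 of the 20 kept the compound 6 call and 20 the compound 3 call.

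**Figure D4:**
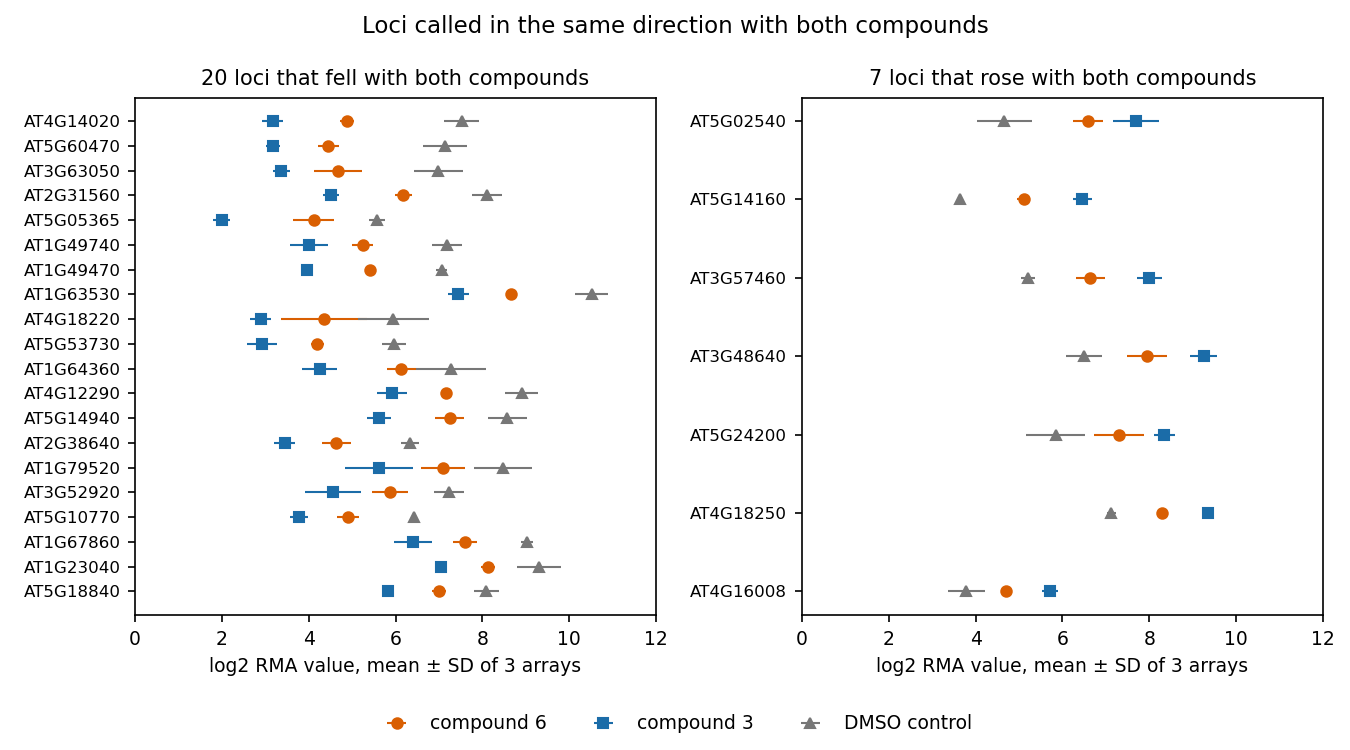
Mean log2 RMA values with SD over 3 arrays for the 20 loci that fell with both compounds (left) and the 7 that rose with both (right), ordered by the compound 3 change. Compound 6 lies between compound 3 and control at each locus, as it must for loci called the same way with both and farther with compound 3.

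At 7 loci both compounds raised the level, and all 7 rose farther with compound 3, where 3.56% of all clusters rose with both. Over those 595 clusters compound 3 was the farther at 235 (39.5%). AT3G57460 had 6.88, 6.77 and 6.26 with compound 6 and 7.90, 7.78 and 8.32 with compound 3, against 5.24, 5.35 and 5.03 in control leaves. AT5G14160 had 5.05, 5.28 and 4.99 with compound 6 and 6.71, 6.34 and 6.31 with compound 3, against 3.62, 3.65 and 3.66 in control leaves. The control arrays of AT5G14160 were within 0.1 of each other, and at both loci no group overlapped another. AT3G57460 rose by 1.43 with compound 6 (SE 0.22, adjusted p = 0.000885) and by 2.80 with compound 3 (SE 0.22, adjusted p = 2.07e-06). AT5G14160 rose by 1.47 with compound 6 (SE 0.19, adjusted p = 0.000244) and by 2.82 with compound 3 (SE 0.19, adjusted p = 5.72e-07).

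AT3G48640 averaged 7.94 ± 0.46 with compound 6 and 9.25 ± 0.31 with compound 3, against 6.49 ± 0.42 in control leaves (SD, n = 3 each). AT5G02540 averaged 6.59 ± 0.34 with compound 6 and 7.69 ± 0.53 with compound 3, against 4.66 ± 0.64 in control leaves (SD, n = 3 each). AT5G02540 had the greatest rise of the 133 with compound 3, 3.03 (adjusted p = 3.61e-05), and rose by 1.93 with compound 6 (adjusted p = 0.00156). AT3G48640 rose by 1.45 with compound 6 and 2.76 with compound 3 (adjusted p = 0.00357 and 1.76e-05). The 4 loci kept both calls without any 1 of the 6 arrays compared. Over the 7 the change ran from 0.9 to 1.93 with compound 6 and from 1.93 to 3.03 with compound 3.

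A rise with compound 6 and no call with compound 3 was the pattern of 13 loci and of 2.06% of all clusters. AT5G21100 had 6.58, 6.19 and 6.04 with compound 6 and 4.53, 4.42 and 4.23 with compound 3, against 4.44, 4.12 and 3.74 in control leaves. AT3G28270 had 4.23, 4.80 and 4.30 with compound 6 and 2.17, 2.22 and 1.92 with compound 3, against 2.12, 2.62 and 3.50 in control leaves. AT1G60060 had 5.77, 5.99 and 5.19 with compound 6 and 4.17, 3.86 and 3.48 with compound 3, against 4.0, 3.91 and 4.54 in control leaves. At all 3 loci the compound 6 arrays were the highest of the 9 and the other groups overlapped.

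AT5G21100 rose with compound 6 by 2.18 (SE 0.23, adjusted p = 3.51e-05), 4.52-fold, which was the greatest rise of the 133 with compound 6, and its compound 3 change was 0.29 (adjusted p = 0.507). AT3G28270 rose by 1.69 (adjusted p = 0.00193) and AT1G60060 by 1.5 (adjusted p = 0.00195). Their compound 3 changes were -0.64 and -0.32 (adjusted p = 0.21 and 0.547). These 3 calls with compound 6 held without any 1 of the 6 arrays compared, as they did at 9 of the 13 loci. Over the 13 the change ran from 0.78 to 2.18 with compound 6 (median 1.25) and from -0.65 to 0.5 with compound 3 (median -0.09). Control levels ran from 2.08 to 6.73.

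A fall with compound 6 and no call with compound 3 was the pattern of 9 loci and of 1.08% of all clusters. AT1G21326 had 6.46, 6.34 and 5.31 with compound 6 and 7.06, 7.48 and 7.20 with compound 3, against 7.17, 8.21 and 8.52 in control leaves. Compound 6 arrays lay below all control arrays, and the highest compound 3 array was above the lowest control array. The change was -1.93 with compound 6 (SE 0.35, adjusted p = 0.00234) and -0.72 with compound 3 (adjusted p = 0.238), and the compound 6 call held without any 1 of the 6 arrays compared, as at 3 of the 9 loci.

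The other loci named in this pattern had calls near the threshold. AT3G62950 averaged 4.65 ± 0.46 with compound 6 and 5.62 ± 0.43 in control leaves (SD, n = 3 each), and its change of -0.97 (adjusted p = 0.0283) was -0.70 with replicate 3 of compound 6 left out (adjusted p = 0.134). With control replicate 2 left out it was -0.98 (adjusted p = 0.0685), and with control replicate 3 left out -0.75 (adjusted p = 0.109), none of them a call. AT2G07739 averaged 4.02 ± 0.29 with compound 6 and 4.84 ± 0.39 in control leaves (SD, n = 3 each). Its change of -0.81 (adjusted p = 0.0396) ended without any 1 of the 3 compound 6 arrays or of control replicates 1 and 3, with values from -0.92 to -0.59 and adjusted p from 0.0511 to 0.169. A second, brighter cluster of AT2G07739 stood at 7.93 with compound 6, against 7.66 in control leaves, a change of 0.27 in the other direction that was not called (adjusted p = 0.551). AT5G64790 averaged 1.93 ± 0.09 with compound 6 and 2.77 ± 0.26 in control leaves (SD, n = 3 each). Its change of -0.85 (adjusted p = 0.0479) ended without any 1 of the 6 arrays, with values from -0.93 to -0.70 and adjusted p from 0.069 to 0.172, and its level is dim. Over the 9 loci the change ran from -1.93 to -0.77 with compound 6 (median -0.88) and from -0.72 to 0.28 with compound 3 (median 0.18).

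Neither comparison with control called 28 of the loci, 17 with compound 6 higher and 11 with compound 6 lower, where 85.2% of all clusters were called with neither. AT1G48720, with the widest gap of the 133, is one of them. It had 5.92, 4.32 and 4.97 with compound 6, 0.96, 4.11 and 2.19 with compound 3 and 2.81, 3.02 and 3.67 in control leaves. The compound 3 arrays spread over more than 3 log2 units, and the control arrays lay within that spread and below the compound 6 arrays. Its change was 1.90 with compound 6 (SE 0.59, adjusted p = 0.0583) and -0.74 with compound 3 (SE 0.59, adjusted p = 0.529).

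AT5G15780 averaged 5.98 ± 0.72 with compound 6, 4.16 ± 0.37 with compound 3 and 4.99 ± 0.60 in control leaves (SD, n = 3 each). AT3G54400 averaged 6.59 ± 0.52 with compound 6, 5.16 ± 0.17 with compound 3 and 5.93 ± 0.39 in control leaves (SD, n = 3 each). At both loci control lay between the compounds. AT5G15780 changed by 0.99 with compound 6 and -0.84 with compound 3 (adjusted p = 0.107 and 0.17), and AT3G54400 by 0.67 and -0.76 in that order (adjusted p = 0.156 and 0.0897).

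AT5G24155 had 3.77, 5.76 and 4.60 with compound 6, 3.24, 3.07 and 3.48 with compound 3 and 3.58, 1.69 and 4.07 in control leaves. AT1G34910, a dim locus, had 2.19, 1.85 and 2.00 with compound 6 and 2.55, 4.86 and 2.44 with compound 3, against 1.89, 1.53 and 2.00 in control leaves. A single array sets much of the spread at each: 1 control array at 1.69 for AT5G24155, and 1 compound 3 array at 4.86 for AT1G34910. AT3G16530 averaged 6.86 ± 0.26 with compound 6, 8.15 ± 0.31 with compound 3 and 7.44 ± 0.65 in control leaves (SD, n = 3 each). Their changes were 1.60, 0.21 and -0.58 with compound 6 (adjusted p = 0.0764, 0.882 and 0.289), and 0.15, 1.48 and 0.70 with compound 3 (adjusted p = 0.917, 0.0557 and 0.16). Over the 28 the change ran from -1.08 to 1.9 with compound 6 and from -1.26 to 1.48 with compound 3.

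The RefSeq synonyms of the 133 loci were searched for names starting with At, NPF, NHL or NDR1, and 3 loci had one. These 3 were singled out for that name after their values were seen. Other family names were not searched for. AT1G68570 is listed as NPF3.1 and AT3G21670 as NPF6.4. Both belong to the NRT1/PTR family, membrane carriers for nitrate, peptides and hormones. NPF3.1 is known in Arabidopsis as a carrier of nitrite and gibberellin, and NPF6.4 is a member of the nitrate transporter branch. AT5G53730 is listed as NHL26, an NDR1/HIN1-like protein of the phloem known in Arabidopsis to affect sugar export from leaves.

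NPF3.1 had 7.56, 8.02 and 7.5 with compound 6 and 6.13, 6.11 and 5.98 with compound 3, against 6.62, 6.4 and 7.16 in control leaves. Compound 6 arrays lay above all control arrays and compound 3 arrays below them. The rise of 0.97 with compound 6 was called (SE 0.23, adjusted p = 0.0135) and the change of -0.65 with compound 3 was not (SE 0.23, adjusted p = 0.0879). The rise was 0.80 with replicate 2 of compound 6 left out (adjusted p = 0.0703), 0.92 with control replicate 1 left out (adjusted p = 0.0503) and 0.81 with control replicate 2 left out (adjusted p = 0.0645), none of them a call.

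NPF6.4 had 6.84, 6.11 and 6.79 with compound 6 and 5.63, 5.44 and 5.27 with compound 3, against 6.4, 6.14 and 6.18 in control leaves. Compound 3 arrays were the lowest, and the compound 6 and control arrays overlapped. Its change of -0.80 with compound 3 (SE 0.22, adjusted p = 0.0326) lost its call without any 1 of the 3 compound 3 or 3 control arrays, with values from -0.89 to -0.71 and adjusted p from 0.0539 to 0.111. With compound 6 it differed from control by 0.34 (adjusted p = 0.454).

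NHL26 had 4.06, 4.19 and 4.35 with compound 6 and 3.17, 3.09 and 2.54 with compound 3, against 5.66, 6.05 and 6.20 in control leaves. The groups did not overlap, with compound 3 lowest. It fell with both compounds, with a change of -1.77 with compound 6 (SE 0.22, adjusted p = 0.000196) and -3.03 with compound 3 (SE 0.22, adjusted p = 1.02e-06), and both calls held without any 1 of the 6 arrays compared. In linear terms this is 3.4-fold and 8.19-fold lower, and the fold with compound 3 is approximate at its dim mean of 2.93.

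**Figure D5:**
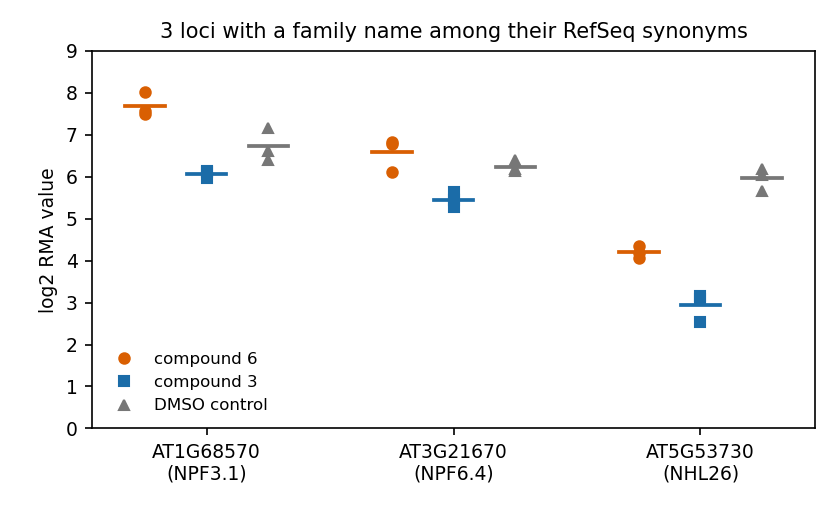
Log2 RMA values of the 3 arrays of each group, with bars at group means, for 3 loci with a family name found among their RefSeq synonyms. Compound 6 arrays lie above control at NPF3.1, overlap it at NPF6.4 and lie below it at NHL26, and compound 3 arrays lie below both other groups at all 3.

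Along the chromosomes, 37 of the 133 loci carry a chromosome 1 number, 14 chromosome 2, 23 chromosome 3, 18 chromosome 4 and 41 chromosome 5. Next to each other in the RefSeq order lay 2 pairs, both lower with compound 6. AT2G20142 had 7.53, 7.29 and 7.54 with compound 6, 8.46, 8.46 and 8.75 with compound 3 and 7.17, 7.57 and 7.27 in control leaves. Its neighbour AT2G20150 had 4.90, 4.34 and 4.58 with compound 6 and 5.76, 5.68 and 5.82 with compound 3, against 5.17, 5.21 and 5.06 in control leaves. Compound 3 arrays were the highest at both. AT2G20142 rose by 1.22 with compound 3 (adjusted p = 0.000899), while the changes of AT2G20150 were -0.54 with compound 6 and 0.61 with compound 3 (adjusted p = 0.108 and 0.0617).

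The other pair was AT5G64780 and the AT5G64790 described above. AT5G64780 averaged 4.81 ± 0.23 with compound 6, 5.91 ± 0.09 with compound 3 and 4.07 ± 0.64 in control leaves (SD, n = 3 each), and rose with compound 3 by 1.84 (adjusted p = 0.000494), whereas AT5G64790 fell with compound 6. AT4G18220 and AT4G18250 lie within 5 genes of each other, and their gaps between the compounds have opposite signs, 1.46 and -1.07. AT4G18220 fell with compound 3 by 3.05 (adjusted p = 0.0004), at 2.90 ± 0.24 against 5.94 ± 0.82 in control leaves. AT4G18220 was also called down with compound 6, and that call ended without replicates 1 or 3 of compound 6 or of control, with values from -1.54 to -1.20 and adjusted p from 0.0917 to 0.15. AT4G18250 rose with compound 3 by 2.23 (adjusted p = 2.05e-06), at 9.36 ± 0.10 against 7.13 ± 0.11 in control leaves (SD, n = 3 each).

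Among next-door genes that are no member, 169 were measured, and the gap between the compounds had the member's sign at 98 (58%). The median gap of these neighbours in the member's direction was 0.06, and the greatest was 0.85 in size. Neighbours that met the rule are members and were left out, which limits the size of these gaps. Over all clusters of 1 gene compound 6 was the higher at 48.6%. AT5G14930, the senescence-associated SAG101 beside AT5G14940, averaged 5.17 with compound 6, 5.91 with compound 3 and 5.48 in control leaves, a gap of -0.74 beside the 1.63 of AT5G14940.

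For 4 of the 133 loci a second transcript cluster of the same locus was measured, and none of the 4 met the thresholds. AT1G68570 (NPF3.1) had 5.81 with compound 6, 5.35 with compound 3 and 5.51 in control leaves there, a gap of 0.46 beside 1.62 for the member cluster. AT5G36001 had a gap of -0.41 there, beside -1.01, and AT2G07739 of -0.28, beside -1.10. AT1G20520 had a gap of 0.10 there, beside -1.09, so the sign of the gap was kept at 3 of the 4 and its size was smaller at all 4. Against control, the compound 6 change had the opposite sign in the second cluster at 3 of the 4. It was 0.25 there beside -0.39 at AT5G36001, 0.27 beside -0.81 at AT2G07739 and 0.23 beside -0.17 at AT1G20520, and at NPF3.1 it was 0.30 beside 0.97. The compound 3 change kept its sign at all 4, and at AT1G20520 it was 0.13 beside 0.92. Neither compound's change was called at any of these second clusters (adjusted p from 0.0918 to 0.852).

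The level of the 133 loci in control leaves had a median of 5.27, against 3.73 over all clusters of 1 gene. At 18 of the 133 the highest group mean was under 4.03, the median of that quantity over all clusters, and at such dim levels folds are approximate, as they are wherever a single group lies under that mark, because the deposited values do not say how far a signal stands above background. Whether probes of a cluster also match similar genes was not tested. The median SD between the 3 arrays was 0.301 with compound 6, 0.259 with compound 3 and 0.389 in control leaves for the 133, against 0.238, 0.235 and 0.261 over all clusters. The spread was thus widest in control leaves, a group that the rule did not use, for the members as for all clusters.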

How the data were processed

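Each of the 9 arrays measured RNA of one pool of detached leaves. The authors deposited 1 table of RMA values, taken as log2 because that is the scale of RMA, and the base is not stated in the file; per the submitters' processing notes, RMA and the R packages oligo and limma were used, with no version. No source used here names a genome build. Of 38408 clusters, 16722 were paired with 1 gene, 759 with several and 20927 with none. For 16670 of the 16722 clusters the gene was found in RefSeq (TAIR10.1), which gave symbols and gene order. The number of arrays limits the precision, and signal over background is unknown.

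The 16722 clusters entered 1 limma fit (limma 3.58.1, R 4.3.3) of 3 groups, with lmFit and eBayes, 6 residual and 7.89 prior degrees of freedom and no filter. Each compound and the mean of both were set against control, with two-sided p-values adjusted by the Benjamini-Hochberg method over all 16722 and called under 0.05. A permutation test of 3 arrays against 3 cannot go below 0.1, so none is given. The fit was tested on simulated data. Alternatives were a replicate block, all clusters, dim clusters left out, 2 centrings, quantile normalization, trend with robust eBayes, and each replicate left out.

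Loci named are the 10 with the highest and the 10 with the lowest gap, the 4 of each pattern with the widest gap (6 in patterns of over 15), adjacent members, members by the threshold and members with a second cluster. AT3G22970 was named for its compound arrays on opposite sides of control. The members and lists were chosen with earlier results of these data known. Product families and promoter motifs were planned and were not analysed here, since the tables used hold neither descriptions nor sequences.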

Additional observations from a re-analysis of the deposited data

How the results depend on the processing

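The number of loci depends on the gap asked for: 318 clusters met the rule at a gap of at least 0.8 and 16 at a gap of at least 1.5, against 133 at 1. Without 1 compound array, 150 to 193 clusters met it. Counts of called loci stayed within 1.5 times their value in every alternative run. Without 1 array, 17 to 25 rose and 20 to 27 fell with compound 6, 30 to 37 rose and 41 to 47 fell with compound 3, and 22 to 28 rose and 32 to 38 fell by the mean of both. The fit without control replicate 3 gave 25 rises and 21 falls with compound 6. With compound 3 it gave 30 rises and 41 falls, the lowest counts of these fits. Pairing by replicate number was not seen in the values, though 3 arrays per group cannot settle it. Same-numbered arrays correlated between -0.375 and 0.261 in their deviations from group means, over 0.1 in 2 of 9 pairs. Only 3 of 9 arrays correlated best with their own number. The highest correlation, 0.511, was between compound 6 replicate 2 and control replicate 3, and its cause was not tested. With the replicate number as a block, 20 rose and 23 fell with compound 6, 34 rose and 45 fell with compound 3, and 28 rose and 39 fell by the mean of both. Centring on all clusters moved the median of all clusters of 1 gene to -0.266 with compound 6 and -0.146 with compound 3, against -0.023 and 0.01 as deposited. Of 1716 recomputed values of the loci named by rule, 1620 stayed on their side of the threshold, 69 lost a call and 27 gained one. With a call in either fit, 0 changed direction. Uncalled values that changed sign count among the 1620. The cause of these changes was not tested.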
